A study of Arabidopsis thaliana with 24 samples.

Results

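Roots of Arabidopsis thaliana Col-0 plants were compared at 6 h and at 3 h of treatment with bleomycin and mitomycin, to describe what the root transcriptome added and what it reversed between the first and the middle phase of the treatment. The comparison rests on 4 arrays, 2 at 6 h and 2 at 3 h, chosen by their labelled tissue and time from the 24 Affymetrix ATH1 arrays of the series. Every group used here came from wild-type plants that were 16 days old and carried on rafts over Murashige and Skoog medium, into which 1.5 µg/ml bleomycin and 22 µg/ml mitomycin had been stirred. Besides the roots at 6 h and 3 h, the roots at 0.5, 1, 12 and 24 h and the shoots of the same series serve below as points of reference. Untreated plants were not analysed here. Treatment began 3 h into a light period of 16 h, so the 6 h arrays fell 9 h and the 3 h arrays 6 h after lights on, and hours of treatment cannot be told apart from hours of daylight in the comparison. Separate plants or cultures for the 2 arrays of a group are not stated in the labels. The p-values rest on the spread within such pairs, pooled over the 12 groups of the series, which may be technical.

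Bleomycin breaks DNA strands and mitomycin crosslinks them. Plant cells answer such damage through the ATM and ATR kinases and the transcription factor SOG1, which switch on repair genes and hold back mitosis, and in roots the dividing cells of the meristem are known to be sensitive. A root is a mixture of meristem, elongation zone, root hairs and vascular tissue, and many of its transcripts also follow the circadian clock and the supply of oxygen and sugar.

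The organ label held at both times. LHCB4.2, an antenna protein of leaf photosynthesis, had signals of 53.1 and 48.2 in roots at 6 h and 63.9 and 57.9 in roots at 3 h, against 4604 or more on the 4 shoot arrays of those hours. PYK10, a β-glucosidase abundant in roots, had 3149 and 3056 at 6 h and 3681 and 3487 at 3 h in roots, and at most 798 in those shoots. Array medians of the 12 root arrays were 45.2 to 47.8. The 2 arrays at 6 h agreed less closely than any other root pair (r = 0.9869 across 22746 probe sets, against 0.9914 for the 3 h pair).

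The pair at 6 h differed most in the genes of low oxygen and heat shock among the lists examined. Of 15 measured genes of the response to low oxygen, 14 were higher on the first 6 h array than on the second, with a median gap of 1.16 on the log2 scale, where the median absolute gap of all probe sets was 0.15. PDC2, pyruvate decarboxylase of ethanolic fermentation, had 857 and 338 at 6 h and 367 and 473 at 3 h. AT4G24110 had 402 and 94.1 at 6 h and 122 and 104 at 3 h. On the first array at 6 h 14 of the 15 lay above both 3 h arrays, and on the second 3 did. Both heat shock genes measured were higher on the first array too (median gap 1.07). In the other direction, 1 of 11 damage-induced loci and 1 of 10 autophagy genes were higher on the first array (median gaps -0.22 and -0.15), where 48.8% of all probe sets were. The part of these gaps in the results below was not tested. The count of calls and the changes of the named genes are also given without either array.

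Signals were compared as log2(signal + 16), and a probe set was taken as changed at an adjusted p below 0.05 in limma (Benjamini-Hochberg over all 22746 probe sets). Between 3 h and 6 h the root changed little by this measure. In roots at 6 h 71 probe sets were higher and 76 lower than at 3 h, 0.312% and 0.334% of those tested, 147 or 0.646% together. The median change of all probe sets was 0.0093. Only 12 of the rises and 20 of the falls reached a change of 1 on the log2 scale, and the smallest called change was 0.27. At an unadjusted p below 0.05 there were 2721. The 2 groups of arrays did not overlap for all 147, and for 42.0% of all probe sets. In a bulk organ, fewer cells of a type and less RNA per cell cannot be told apart.

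The count depended on single arrays. Leaving out the first 6 h array gave 207 calls (92 of them among the 147) and leaving out the second gave 64 (40 among them). Leaving out the first 3 h array gave 89 (56 among them) and leaving out the second gave 39 (30 among them). Fitted on the 12 root arrays alone 38 passed, and on the 4 arrays alone 0, with 2499 at an unadjusted p below 0.05. All 147 kept their sign in each of those fits. Of the 147, 79 carried 1 gene (38 higher and 41 lower), 5 several, and 63 were not listed in the annotation used and are unnamed here. Dim probe sets, with a mean signal below 32 at both times, made up 19 of the rises and 11 of the falls, and 40.3% of all probe sets.

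**Figure D1:**
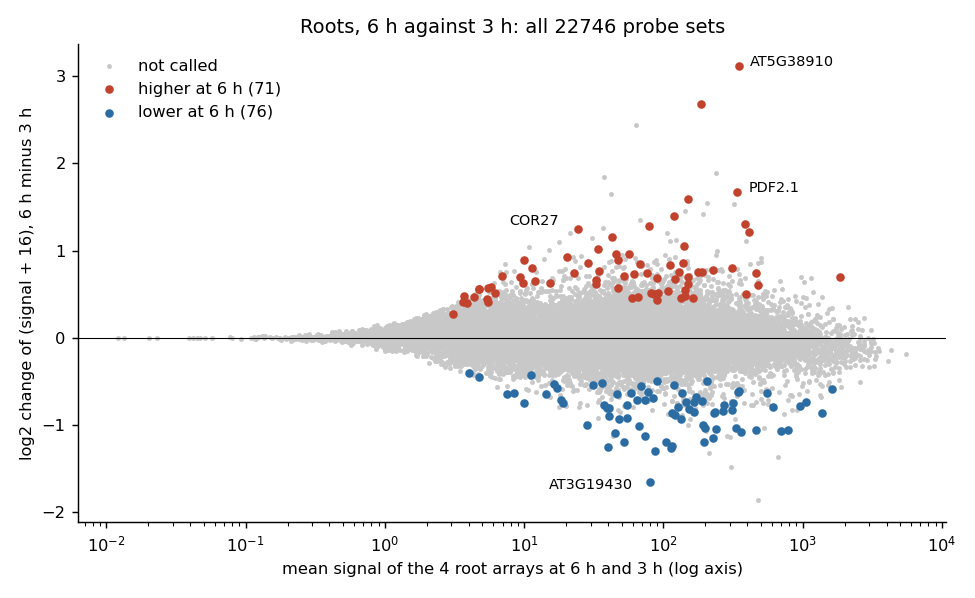
Change of every probe set between 6 h and 3 h in roots (vertical axis, log2 of signal + 16, 6 h minus 3 h) against the mean signal of the 4 arrays (log axis). Red points are the 71 probe sets higher at 6 h, blue points the 76 lower at 6 h, grey points those that did not pass; AT5G38910 stands highest at 3.12 and AT3G19430 lowest among called points at -1.65.

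Among named genes the strongest rise was that of AT5G38910, a locus with no described role in the annotation used. Its signals were 507 and 770 in roots at 6 h, against 48.4 and 68.5 at 3 h. Both 6 h arrays thus lay far above both 3 h arrays, and above all 4 arrays of 0.5 h and 1 h (62.2 to 166). The change was 3.12 ± 0.38 (limma standard error, adjusted p = 0.000595), an 8.69-fold rise of signal + 16. It stayed past the threshold without any 1 of the 4 arrays (2.83 to 3.41).

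PDF2.1, of the plant defensins, small cysteine-rich peptides known for antimicrobial activity, had 431 and 624 at 6 h and 147 and 158 at 3 h. It had already climbed before 3 h, since the arrays of 0.5 h and 1 h lay between 70.0 and 109, and its rise from 3 h on was 1.67 ± 0.19 (adjusted p = 0.00057). By 24 h it was back at 77.1 and 60.9. AT1G78990 had 121 and 115 at 6 h and 47.0 and 32 at 3 h, a rise of 1.29 ± 0.15 (adjusted p = 0.000587). Here 3 h was a trough, below the 57.2 to 79.0 of the first hour, and 6 h stood above that range.

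COR27, a cold-induced regulator that also acts in the circadian clock, had 45.7 and 36 at 6 h and 6.95 and 8.68 at 3 h. The groups were well apart, and the 4 arrays of the first hour lay at 0.85 to 5.88, so the gene came up out of a very dim signal. Its rise was 1.25 ± 0.15 (adjusted p = 0.000587). With PDF2.1, AT5G38910 and AT1G78990 it made up the 4 of 12 named rises that passed in each fit with 1 of the 4 arrays omitted (1.13 to 1.37 for COR27, 1.41 to 1.93 for PDF2.1, 1.09 to 1.48 for AT1G78990). With a pseudocount of 1 COR27, PDF2.1 and AT1G78990 kept their sign but did not pass, at 2.24 for COR27 (adjusted p = 0.06), 1.76 for PDF2.1 (adjusted p = 0.258) and 1.58 for AT1G78990 (adjusted p = 0.0611).

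UNG, uracil DNA glycosylase, removes uracil from DNA and so starts base excision repair. Its signals were 47.3 and 35.7 at 6 h and 14 and 17.2 at 3 h, with 22.3 to 27.7 during the first hour. Both 6 h arrays thus lay above the early range and both 3 h arrays below it, and the 12 h arrays (47.2 and 51.9) stood with those of 6 h. The change was 0.86 ± 0.16 (adjusted p = 0.0165), within 0.71 to 1.0 when 1 array was left out, but no longer past the threshold without the first 6 h array or either 3 h array.

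The other 7 of the 12 largest named rises are given by locus, since the annotation used lists no role for them. AT4G33980 had 99.1 and 61.4 at 6 h and 31.3 and 33.6 at 3 h (0.96 ± 0.17), and AT1G05060 had 198 and 135 at 6 h and 90.2 and 91.4 at 3 h (0.75 ± 0.14). AT4G33710 had 18.0 and 46.4 at 6 h and 8.47 and 8.14 at 3 h (0.92 ± 0.20), so its 6 h arrays differed from each other by more than the lower one did from 3 h. AT3G01490 was dim in roots, with 18.3 and 17.3 at 6 h and 1.51 and 2.88 at 3 h (0.89 ± 0.19). AT5G49350 (0.83 ± 0.17), AT1G04770 (0.78 ± 0.13) and AT1G07590 (0.77 ± 0.16) all came back from a trough, since both of their 3 h arrays lay below all 4 of the first hour. Adjusted p for these 7 was 0.00897 to 0.0472. In all 7 the 6 h arrays lay above the 3 h arrays, which was a condition for naming them.

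None of these 7 was past the threshold in all 4 fits with 1 array left out. AT1G04770 lost its call without the first 6 h or the second 3 h array (0.68 to 0.87). AT4G33980 (0.68 to 1.25) and AT1G05060 (0.50 to 1.01) lost it without the first 6 h array or either 3 h array. AT4G33710 (0.49 to 1.36) and AT5G49350 (0.57 to 1.10) lost it without the second 6 h array or either 3 h array. AT3G01490 (0.84 to 0.95) and AT1G07590 (0.60 to 0.94) lost it in each of the 4 fits. All of them stayed positive.

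The largest named fall was that of AT3G19430, which had 43.5 and 18.2 at 6 h and 99.0 and 159 at 3 h. It had been at 11 to 38.3 in the first hour, so 3 h was a peak and 6 h a return towards the start. The change was -1.65 ± 0.29 (adjusted p = 0.0119), with -2.05 to -1.25 when 1 array was left out, and the call was lost without the second 6 h or the second 3 h array.

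The same course, up at 3 h and down at 6 h, was seen for sks15, which is similar to the cell wall protein SKU5. It had 62.3 and 28.2 at 6 h, 125 and 131 at 3 h and 28.4 to 52.5 in the first hour (-1.29 ± 0.24, adjusted p = 0.0165). AT1G50060 had 64.9 and 50.8 at 6 h, 114 and 221 at 3 h and 30.7 to 59.3 in the first hour (-1.26 ± 0.26, adjusted p = 0.036). Its neighbouring locus AT1G50050, named after its values were seen, had 29.2 and 20.7 at 6 h and 44.6 and 67.7 at 3 h (-0.81 ± 0.16, adjusted p = 0.0228). Whether probes are shared between these neighbours was not tested. With 1 array left out sks15 (-1.70 to -0.88) lost its call without the second 6 h array or either 3 h array, AT1G50060 (-1.69 to -0.83) without either 6 h or the second 3 h array, and AT1G50050 (-1.04 to -0.57) without the second array of either time.

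UGT76D1, an enzyme of the family that attaches glucose to small molecules, had 88.9 and 83.6 at 6 h, against 177 and 181 at 3 h. Replicates lay close together, and 6 h was still above the 50.6 to 61.7 of the first hour, so only part of the 3 h rise was reversed. The change was -0.93 ± 0.11 (adjusted p = 0.00057). AT2G01900 had 39.9 and 37.6 at 6 h and 95.1 and 93.8 at 3 h (-1.01 ± 0.15, adjusted p = 0.00415), and here 6 h went below the 53.4 to 81.4 of the first hour. AT5G14120 had 171 and 134 at 6 h and 338 and 319 at 3 h (-1.04 ± 0.12, adjusted p = 0.000587), a fall to below a first-hour range of 340 to 421 in which 3 h had just dropped under its lower end. These 3 were the named falls that passed whichever array was left out (-0.97 to -0.89 for UGT76D1, -1.04 to -0.98 for AT2G01900, -1.20 to -0.88 for AT5G14120). With a pseudocount of 1 AT2G01900 did not pass (-1.26, adjusted p = 0.317).

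SBT4.12, a subtilisin-like serine protease, had 308 and 285 at 6 h and 582 and 684 at 3 h, with 425 to 506 in the first hour (-1.05 ± 0.20, adjusted p = 0.0174). Both 6 h arrays lay below the early range and both 3 h arrays above it. AT5G61590, listed with the synonym DEWAX for a repressor of cuticular wax synthesis, had 163 and 162 at 6 h and 308 and 305 at 3 h (-0.85 ± 0.16, adjusted p = 0.0174), and 6 h lay inside the 155 to 237 of the first hour. AT2G28780 (-1.19 ± 0.18), AT4G22212 (-1.05 ± 0.17), AT1G05575 (-1.03 ± 0.19) and AT1G12080 (-0.85 ± 0.14) did not have both 3 h arrays outside the early range and had both 6 h arrays below it (adjusted p = 0.00415 to 0.0177). AT2G28780 had 62.9 and 52.0 at 6 h and 158 and 146 at 3 h, and it kept going down to 40.9 and 38.2 at 12 h.

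With 1 array left out, AT2G28780 (-1.30 to -1.09) lost its call only without the second 6 h array. AT4G22212 (-1.18 to -0.93) and AT1G12080 (-0.91 to -0.80) lost it without the second array of either time. SBT4.12 (-1.16 to -0.94) lost it without the second 6 h array or either 3 h array. AT1G05575 (-1.05 to -1.01) and AT5G61590 (-0.86 to -0.85) lost it in each of the 4 fits, although their values hardly moved.

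**Figure D2:**
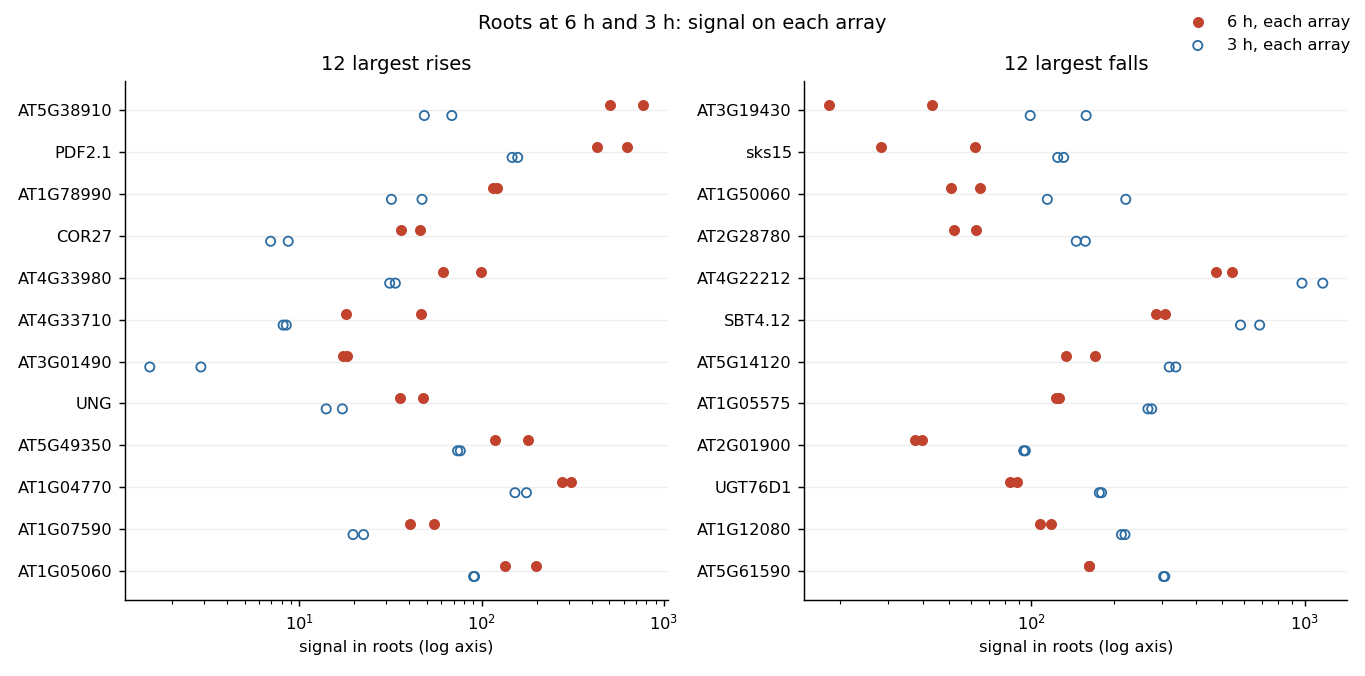
Signal on each root array (log axis) of the 12 largest named rises (left) and falls (right), with 6 h in filled red circles above 3 h in open blue circles. In every row the 2 arrays of 6 h lie on 1 side of the 2 arrays of 3 h, which was a condition for naming these genes. The pair at 6 h is wide apart for AT4G33710 (18.0 and 46.4) and AT3G19430 (43.5 and 18.2).

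Of the 79 called genes 14 had a symbol other than their locus, 6 higher and 8 lower. Those outside the naming rule are given here because they carry a name, chosen after their values were seen. TRM19, of a family of proteins bound to microtubule-organising TON1, had 165 and 215 at 6 h and 120 and 101 at 3 h (0.70 ± 0.12, adjusted p = 0.0119). The serine carboxypeptidase-like gene scpl46 had 67.8 and 69.1 at 6 h and 38.0 and 33 at 3 h (0.72 ± 0.11, adjusted p = 0.00509), again after a 3 h trough. SBE2.2, a starch branching enzyme, had 65.1 and 51.6 at 6 h and 90.8 and 105 at 3 h (-0.62 ± 0.13, adjusted p = 0.036). TRI, named for tropinone reductase, had 249 and 215 at 6 h and 345 and 460 at 3 h (-0.74 ± 0.14, adjusted p = 0.0212). TAC1, telomerase activator1, had 30.4 and 24.0 at 6 h and 46.7 and 44.9 at 3 h (-0.52 ± 0.11, adjusted p = 0.043).

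In all 5 the arrays of the 2 times did not overlap, as in all 147 called probe sets. With 1 array left out, scpl46 (0.64 to 0.79) lost its call without the second 3 h array, TRM19 (0.52 to 0.88) and TRI (-0.94 to -0.54) without the second array of either time, and SBE2.2 (-0.75 to -0.49) and TAC1 (-0.63 to -0.41) without the second 6 h array or either 3 h array.

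Some unnamed probe sets moved as much as the named genes. Probe set 260623_at had 232 and 437 at 6 h and 45.6 and 28.5 at 3 h (2.68 ± 0.33, adjusted p = 0.000645), and 257985_at had 239 and 229 at 6 h and 63.2 and 70.4 at 3 h (1.6 ± 0.13, adjusted p = 1.28e-05). Probe set 245448_at had 18.9 and 15.0 at 6 h and 63.1 and 61.9 at 3 h (-1.25 ± 0.11, adjusted p = 3.69e-05), and 264734_at had 57.1 and 65.9 at 6 h and 151 and 183 at 3 h (-1.24 ± 0.27, adjusted p = 0.0492).

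To separate what was added from what was reversed, the arrays of each called probe set were placed against the 4 root arrays of 0.5 h and 1 h. The same 6 h and 3 h arrays chose the probe sets, so these counts describe them and carry no test. Of the 71 rises, 36 started from a trough, with both 3 h arrays below all 4 early ones. At 6 h both arrays of 21 of these lay above the early range, those of 1 lay below it, and 14 had arrays within or straddling it. Another 26 had 3 h arrays within or straddling the early range and both 6 h arrays above it, like AT5G38910 and AT3G01490. For 8, PDF2.1, COR27 and AT4G33980 among them, the arrays of both times lay above the early range. The remaining 1 fitted none of these. COR27 was dim at 3 h, and its 3 h change against the first hour did not pass (0.37, adjusted p = 0.11).

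Among the falls, coming down from a 3 h peak was the more frequent course. Of the 76, 50 came down from a peak, with both 3 h arrays above all early ones. At 6 h both arrays of 24 of these lay below the early range, those of 3, UGT76D1 among them, were still above it, and 23 had arrays within or straddling it. Another 20 had 3 h arrays within or straddling the early range and both 6 h arrays below it, like AT2G28780 and AT4G22212. For the other 6 the arrays of both times lay below the early range. AT5G14120 was 1 of these, but its 3 h change against the first hour did not pass (-0.14, adjusted p = 0.563). Over all probe sets, both 6 h arrays lay above the 4 early ones for 17.8% and below them for 12.2%, and both 3 h arrays above them for 18.2% and below them for 14.3%.

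**Figure D3:**
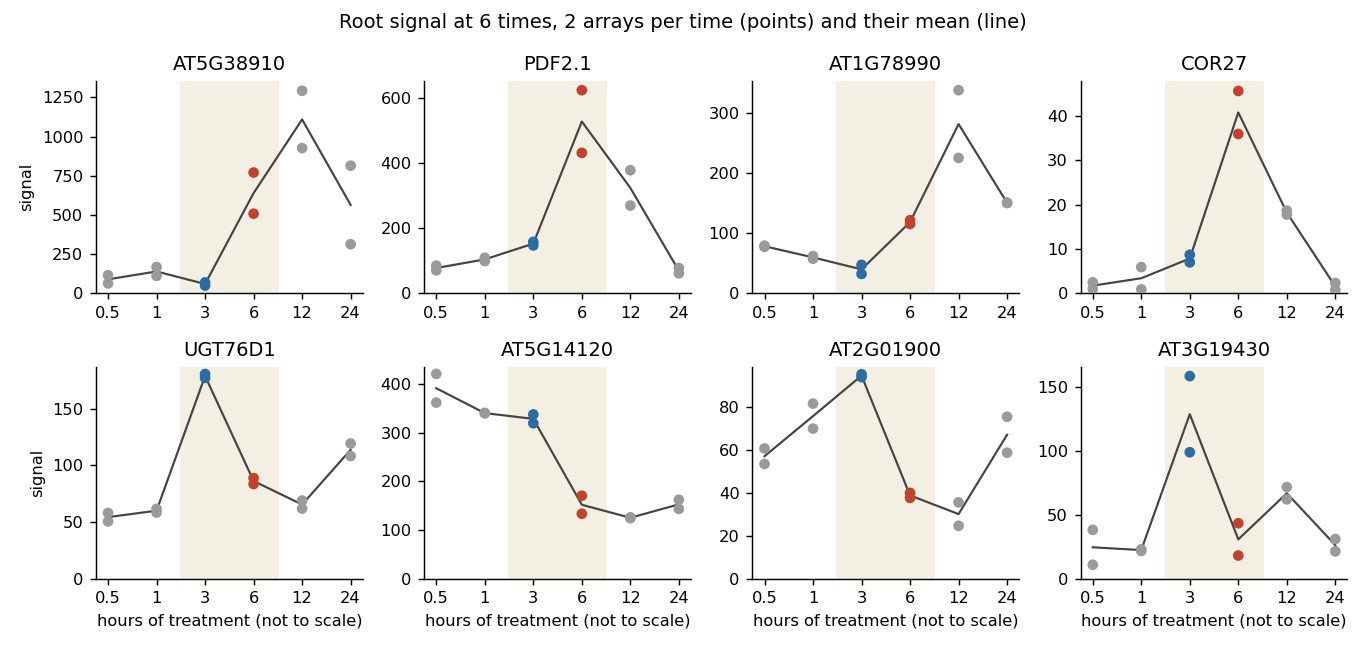
Signal of 8 named genes in roots at 0.5, 1, 3, 6, 12 and 24 h (horizontal axis, evenly spaced), 2 arrays per time as points with their mean as a line; the shaded band covers 6 h (red) and 3 h (blue). AT5G38910 and AT1G78990 climb on to 12 h, PDF2.1 and COR27 are highest at 6 h, and UGT76D1 and AT3G19430 have their peak at 3 h.

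Roots at 12 h set against the first hour share no array with the comparison of 6 h and 3 h, so they show whether the called probe sets were displaced later as well. The fit gives each probe set 1 estimate of spread for all comparisons, those with shoots below included. A probe set with a low estimate passes more easily in each, so the shares of all probe sets are not a like-for-like background. Of the 71 rises, 41 (57.7%) were higher at 12 h than during the first hour and 2 were lower, where 5.58% of all probe sets were higher. Of the 76 falls, 46 (60.5%) were lower at 12 h and 4 higher, where 5.34% of all were lower. Their median differences at 12 h were 0.39 and -0.49, against 0.0062 over all probe sets. Seen from the other side, the rises were 3.23% of the probe sets higher at 12 h and the falls 3.79% of those lower. With 1 of the 6 arrays of 0.5, 1 and 12 h left out the counts were 28 to 40 rises and 33 to 43 falls, lowest in both cases without the first 12 h array.

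Single genes kept different parts of their change. AT5G38910 stood at 1292 and 926 at 12 h (3.16 above the first hour, adjusted p = 5.4e-06) and AT1G78990 at 225 and 337 (1.79, adjusted p = 1.54e-07). COR27 had declined to 17.8 and 18.6 at 12 h, still 0.89 above the first hour (adjusted p = 0.000147). AT3G01490 was at 9.37 and 6.23 and did not differ from the first hour by the test (0.28, adjusted p = 0.341). Among the falls, AT2G28780 (-2.11), AT5G14120 (-1.43) and AT5G61590 (-1.13) were lower at 12 h than at 6 h and below the first hour, whereas UGT76D1, at 62.0 and 69.0, did not differ from it by the test (0.16, adjusted p = 0.359). AT3G19430 was then higher again, at 71.8 and 62.2 (1.11, adjusted p = 0.00679).

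Shoots of the same hours gave a separate set of arrays under the same treatment and the same hours of day. Of the 71 root rises 9 (12.7%) also rose in shoots between 3 h and 6 h and 2 (2.8%) fell, where 3.63% of all probe sets rose and 2.98% fell. Of the 76 root falls 4 (5.3%) fell in shoots and 5 (6.6%) rose. Those 9 and 4 were 1.09% of all 825 shoot rises and 0.59% of all 678 shoot falls. Shoots had 1503 called probe sets over these hours (6.61%), against 147 in roots.

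The difference of the changes, roots minus shoots, passed for 682 probe sets (3.00%), 247 with the root change above the shoot change (1.09%) and 435 with it below (1.91%). Of the 79 called root genes 37 were among them, a count that carries no test, since the same root arrays chose these genes. AT5G38910 was dim in shoots at 6 h (3.48 and 6.40) and at 3 h (5.54 and 1.80), and the organs differed by 3.03 ± 0.53 (adjusted p = 0.00328). With a pseudocount of 1 that difference was 2.99 and did not pass (adjusted p = 0.149). PDF2.1 was likewise dim in shoots at 6 h (6.94 and 0.74) and 3 h (1.6 and 0.22), with a difference of 1.46 ± 0.26 (adjusted p = 0.00404). On the 16 arrays of 0.5, 1, 12 and 24 h, which are not part of the comparison, both were higher in roots, by 3.77 and 2.96.

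COR27 and AT4G33980 rose in both organs and more in shoots. In shoots COR27 had 124 and 89.4 at 6 h and 0.41 and 0.45 at 3 h, and the root change was below the shoot change by 1.64 (-1.64 ± 0.21, adjusted p = 0.000166). AT4G33980 had 154 and 148 at 6 h and 1.06 and 0.77 at 3 h in shoots (difference -2.34 ± 0.25, adjusted p = 2.83e-05). AT5G61590 fell in roots and rose in shoots, where it had 511 and 564 at 6 h and 334 and 306 at 3 h (shoot change 0.72, difference -1.57 ± 0.22, adjusted p = 0.00048). UGT76D1, which fell in roots, did not change by the test in shoots (0.14, adjusted p = 0.571), with a difference of -1.07 ± 0.15 (adjusted p = 0.000411).

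For most genes with the largest differences the shoot moved and no root change passed. COR15B, a cold-regulated chloroplast protein, had 21.9 and 13.1 at 6 h and 22.4 and 22.6 at 3 h in roots, and 857 and 1006 at 6 h and 43.2 and 133 at 3 h in shoots (difference -3.54 ± 0.53). AT1G07050 had 4.82 and 4.50 at 6 h and 3.05 and 2.91 at 3 h in roots, and 310 and 258 at 6 h and 5.96 and 4.64 at 3 h in shoots (difference -3.69 ± 0.23). On the other side AT2G15020 had at most 2.01 on these 4 root arrays, and 11 and 17.1 at 6 h and 172 and 146 at 3 h in shoots (difference 2.6 ± 0.23). GI, GIGANTEA of the circadian clock, had 316 and 293 at 6 h and 289 and 304 at 3 h in roots, so its groups overlapped (0.04 ± 0.18), while it rose by 1.62 in shoots.

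**Figure D4:**
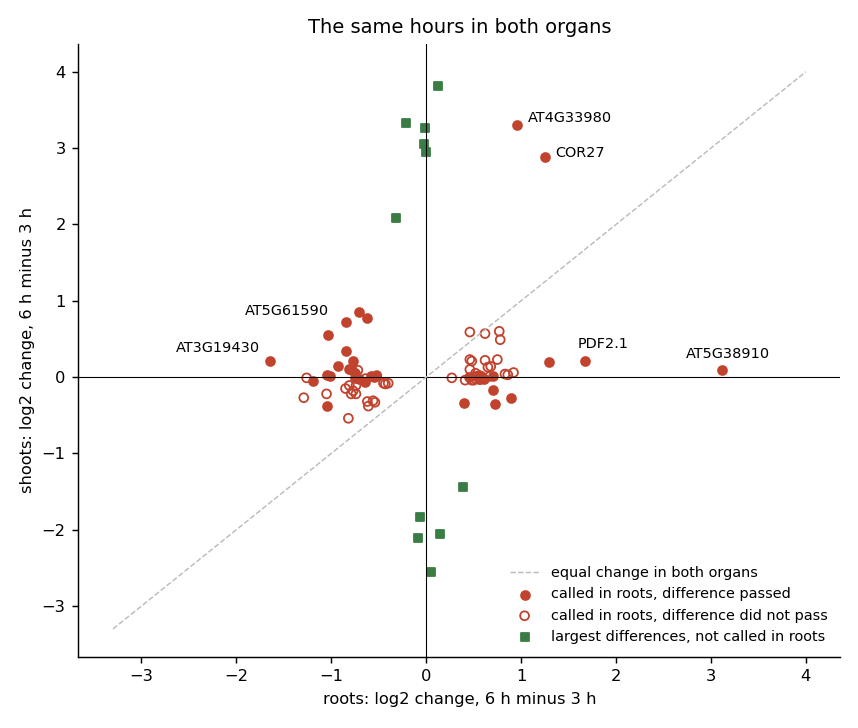
Change between 6 h and 3 h in roots (horizontal axis, log2) and in shoots (vertical axis, log2), for the 79 called root genes (red; filled where the difference between organs passed) and for the genes with the largest differences that were not called in roots (green squares). Most red points lie near 0 for shoots, COR27 and AT4G33980 lie above the line of equal change, and the green squares lie near 0 for roots.

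Over all 16 arrays of the other times, 51 of the 71 rises were higher in roots than in shoots (71.8%) and 15 lower, against 46.4% and 26.7% of all probe sets, 73.0% in either direction. Of the 76 falls 43 were higher in roots (56.6%) and 27 lower (35.5%). The median differences in level were 0.37 and 0.36, and 0.1051 over all probe sets.

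The response to DNA damage was examined through 11 measured genes of a list of damage-induced loci, drawn up with results of these arrays known. None of the 11 passed between 3 h and 6 h, where 0.646% of all probe sets did, and their median change was 0.27, with values from -0.30 to 0.59 and 9 above 0. Most of their rise had taken place earlier. At 6 h 9 of them were higher than during the first hour and at 3 h 8 were (3.75% and 3.14% of all probe sets, where 6.72% and 6.04% passed in either direction), with medians of 1.38 at 6 h and 1.10 at 3 h. With 1 array left out these counts were 8 to 9 at 6 h and 6 to 8 at 3 h, the 6 without the first 3 h array.

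ATMND1, named after the Mnd1 protein of meiosis, had 101 and 116 at 6 h and 127 and 102 at 3 h, with 17.5 to 25.2 in the first hour, so it was flat between the 2 times (-0.06 ± 0.19). AT4G22960 had 275 and 323 at 6 h and 226 and 169 at 3 h, with 31.1 to 52.9 before (0.57 ± 0.19, adjusted p = 0.216). AT5G60250 had 96.0 and 157 at 6 h and 97.6 and 76.9 at 3 h, so its groups overlapped (0.44 ± 0.17, adjusted p = 0.295), and it passed only without the first 6 h array (0.75). Overlap was also seen for AT2G45460 (0.05 ± 0.19), AT2G47680 (0.10 ± 0.18) and AT5G02420 (0.04 ± 0.13).

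The remaining 5 did not pass, and their groups did not overlap, which was so for 42.0% of all probe sets. AT2G18600 had 141 and 156 at 6 h and 104 and 82.9 at 3 h (0.59 ± 0.21), AT1G20750 36.6 and 53.3 at 6 h and 31.4 and 19.7 at 3 h (0.55 ± 0.22), and the SNF2-type chromatin gene chr31 25.1 and 36.8 at 6 h and 15.9 and 18.5 at 3 h (0.49 ± 0.24). AT3G42860 had 101 and 96.6 at 6 h and 85.5 and 73.1 at 3 h (0.27 ± 0.17). AT3G45730 alone was lower, with 319 and 335 at 6 h and 431 and 381 at 3 h (-0.30 ± 0.18), and in shoots it rose (1.40), a difference of -1.69 ± 0.26 (adjusted p = 0.001). AT2G47680 also rose more in shoots (difference -1.25 ± 0.26, adjusted p = 0.0104).

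Of 12 measured DNA repair genes UNG alone passed between 3 h and 6 h, where 0.646% of all probe sets did, and the median was 0.12. AT1G49980 had 159 and 189 at 6 h and 179 and 110 at 3 h (0.27 ± 0.20), and was already 1.11 above the first hour at 3 h (adjusted p = 0.000768). ATLIG4, the ligase of end joining, had 82.3 and 103 at 6 h and 99.5 and 89.2 at 3 h (-0.02 ± 0.11). FANCM, a helicase of crosslink repair (0.15 ± 0.15), REV7 and POLH of translesion synthesis (0.02 ± 0.14 and 0.22 ± 0.17) and RECQ4A, a helicase (-0.02 ± 0.15), did not pass.

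Of 11 measured genes of mitosis none passed between 3 h and 6 h, where 0.646% of all probe sets did. Among these 11, 10 had negative values, and the median was -0.25. AUR1, an Aurora kinase of the dividing cell, had 60.1 and 71.6 at 6 h and 88.8 and 108 at 3 h (-0.48 ± 0.19, adjusted p = 0.293). BUB3.1 of the spindle checkpoint had 44.1 and 43.3 at 6 h and 59.0 and 69.2 at 3 h (-0.42 ± 0.13, adjusted p = 0.176). Against the first hour 5 of the 11 were lower at 6 h and 1 was lower at 3 h. AUR1 was at -0.69 at 6 h and -0.21 at 3 h on this scale, BUB3.1 at -0.73 at 6 h and -0.31 at 3 h, and AUR2 at -0.68 at 6 h and -0.49 at 3 h. The 5 became 3 without the first 6 h array, and the 1 at 3 h, AUR2, became 0 without either 3 h array. Lower calls against the first hour made up 2.98% of all probe sets at 6 h and 2.90% at 3 h.

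Of 6 genes on the histone list none passed between 3 h and 6 h (median -0.12), where 0.646% of all probe sets did. HTB2, a histone H2B, had 109 and 111 at 6 h and 141 and 167 at 3 h (-0.43 ± 0.23), and HTB1 had 116 and 127 at 6 h and 124 and 103 at 3 h (0.09 ± 0.15). Against the first hour 4 were lower at 6 h (2.98% of all probe sets), which became 1 without the second 6 h array. TOPII, topoisomerase II, had 70.7 and 48.4 at 6 h and 78.3 and 112 at 3 h (-0.56 ± 0.23, adjusted p = 0.328).

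None of the 6 measured genes of root hairs and the root epidermis passed in the comparison, where 0.646% of all probe sets did. All 6 had negative values (median -0.54), and for all 6 both 6 h arrays lay below both 3 h arrays, where 42.0% of all probe sets did not overlap in either direction. The expansin EXPA7, which loosens the wall of growing root hairs, had 23.8 and 33.1 at 6 h and 58.5 and 53.7 at 3 h (-0.70 ± 0.19, adjusted p = 0.12). AT4G26010 had 173 and 142 at 6 h and 234 and 294 at 3 h (-0.69 ± 0.21), and AT1G30870 147 and 156 at 6 h and 215 and 275 at 3 h (-0.64 ± 0.23). EXPA18 had 36.7 and 46.5 at 6 h and 57.7 and 64.7 at 3 h (-0.43 ± 0.19), and the glycosyl hydrolase GH9C1 67.8 and 86.7 at 6 h and 96.2 and 125 at 3 h (-0.44 ± 0.20). Against the first hour 0 of the 6 were higher at 6 h and 5 at 3 h (3.75% and 3.14% of all probe sets), and the 5 became 2 without the first 3 h array, 0 without the second, and 2 to 4 without 1 of the 4 arrays of the first hour.

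Cell wall and metabolic families held single calls, where 0.646% of all probe sets passed. XTH21, of the enzymes that cut and rejoin wall xyloglucan, had 13.4 and 7.70 at 6 h and 20.8 and 23.8 at 3 h (-0.53 ± 0.10, adjusted p = 0.0165), the 1 of 9 family members that passed. CYP718, a cytochrome P450, had 12.7 and 3.17 at 6 h and 17.0 and 24.8 at 3 h (-0.64 ± 0.13, adjusted p = 0.0335), the 1 of 26 in a list taken by symbol that also holds the cyclophilins CYP59 and CYP71. UGT76D1 was the 1 of 48 UDP-glucosyltransferases, whose median was 0.06, and WRKY20, a transcription factor, the 1 of 6 WRKY genes. WRKY20 had 132 and 129 at 6 h and 88.8 and 81.6 at 3 h (0.53 ± 0.10, adjusted p = 0.0236). XTH21 (-0.69 to -0.38) and CYP718 (-0.94 to -0.35) lost their calls without the second array of either time, and WRKY20 (0.48 to 0.59) in each fit with 1 array left out.

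The other lists had no called member in this comparison, where 0.646% of all probe sets passed. None of 18 expansins and none of 14 glutathione transferases passed (medians 0.08 and 0.04). EXPB3 had 359 and 254 at 6 h and 199 and 179 at 3 h (0.64 ± 0.23, adjusted p = 0.253), and GSTU26 67.4 and 85.6 at 6 h and 121 and 134 at 3 h (-0.64 ± 0.24, adjusted p = 0.269). The 8 genes of sugar starvation were all negative (median -0.20, values -0.31 to -0.03), where the median of all probe sets was 0.0093. Members of a list were read on the same arrays, so counts of their signs carry no test. Of 69 genes of the plastid genome, 55 were above 0 (median 0.29), led by ndhE with 152 and 233 at 6 h and 64.6 and 136 at 3 h (0.88 ± 0.27, adjusted p = 0.171). Of the 69, 31.9% were higher on the first 6 h array than on the second, against 48.8% of all probe sets. The 15 ribosomal protein genes measured are all plastid genes and had a median of 0.34, with rps15 at 63.3 and 75.7 at 6 h and 28.7 and 37.8 at 3 h (0.80 ± 0.19, adjusted p = 0.0714).

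Low-oxygen genes had 14 of 15 positive values and a median of 0.26, with no call and with the split between the 6 h arrays described above. Genes of cold and abscisic acid response had no call in roots (5 measured, median -0.21), and 4 of them rose in shoots, where 3.63% of all probe sets did. The cold-induced COR27, which rose in roots (1.25), is not among those 5, so the list does not stand for every cold-induced gene. Of 39 lists in all, 34 had a measured gene, 5 of these had a called member and 29 had none. Of the lists drawn up locus by locus, 103 of 420 loci were measured by a named probe set, so absent calls there cover those members alone.

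**Figure D5:**
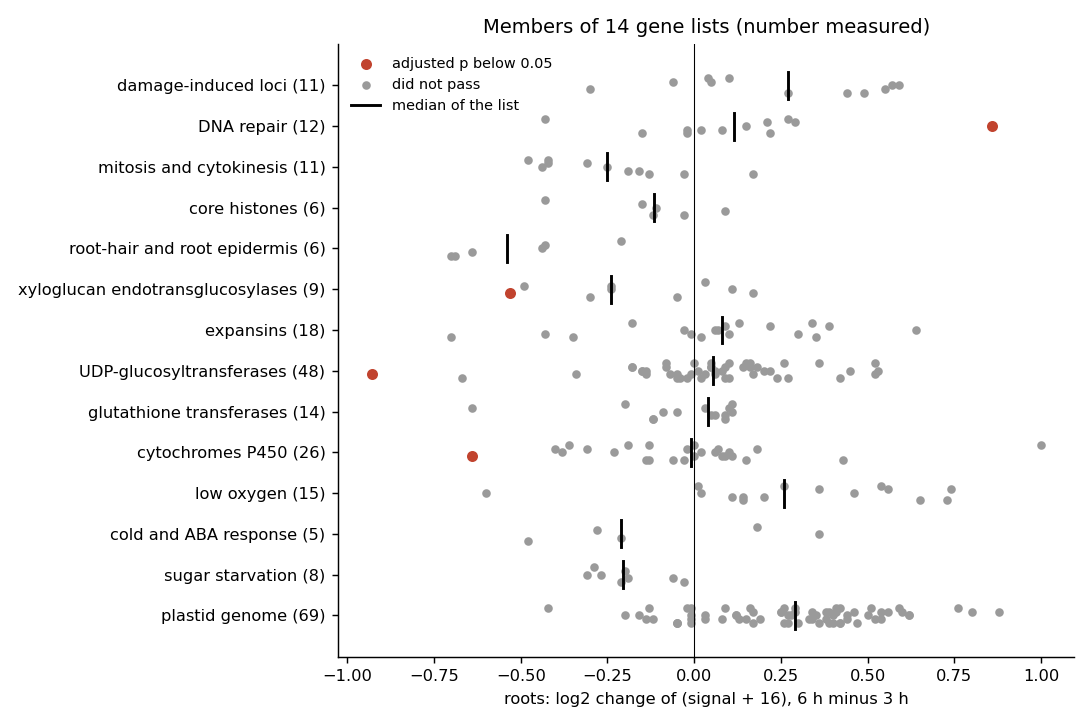
Change between 6 h and 3 h in roots (log2 of signal + 16) of each measured member of 14 gene lists, number of members in brackets; red points passed, grey points did not, and the black bar is the list's median. Single red points stand in the DNA repair (UNG, 0.86), xyloglucan (XTH21, -0.53), UDP-glucosyltransferase (UGT76D1, -0.93) and P450 (CYP718, -0.64) lists, and the epidermis list has its median at -0.54.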

How the data were processed

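RNA of 24 samples had been hybridised to Affymetrix ATH1 arrays. The deposited intensities are MAS5 signals on a linear scale, as the authors' processing notes name the tool; its version and settings are not given in the sources used here. The trimmed mean (2% off each end) was 100 on every array. No detection calls were used, so a dim probe set cannot be told from background, and the number of arrays limits the precision.

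From these intensities, 64 control probe sets were left out and log2(signal + 16) of 22746 probe sets was modelled with limma 3.58.1 under R 4.3.3, using 12 group means over all 24 arrays and empirical Bayes variances with an intensity trend. P-values were adjusted by Benjamini-Hochberg within each comparison. The fit was tested on simulated data. Tables and figures used Python 3.11.15, numpy 2.4.6, pandas 2.3.3 and matplotlib 3.10.9.

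The array's annotation table gave 1 gene for 13513 probe sets, several for 503 and none for 8730, which are unnamed here. RefSeq matched 13436 to a locus, 1535 genes with a symbol. The probe set with the highest mean stood for a gene. Promoter sequence was not used here.

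Named were the 12 largest rises and falls among called single-gene probe sets with arrays that did not overlap, the 6 largest differences between organs each way, up to 4 called members per list and all damage-induced loci measured. The comparison, the members and the lists were chosen with earlier results of these data known. Alternatives were pseudocounts of 1 and 64, quantile and median scaling, removal of the dimmest 30% or 50%, variances without trend, fewer arrays, the replicate number as a block and each array left out. Replicate numbers were not treated as pairs in the main fit, and the labels do not state whether they pair the samples. Same-numbered arrays of 6 h and 3 h deviated with r = -0.0977, within -0.191 to 0.199 for all 66 pairs of groups.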

Additional observations from a re-analysis of the deposited data

Results flagged for a closer look

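The change between 3 h and 6 h differed between roots and shoots, by the test of the difference itself, for 682 probe sets. Of the genes named by the naming rule, 28 were among them. Values are root change minus shoot change on the log2 scale. Genes named outside that rule are not counted in the 28. Among them, scpl46 (1.06), TRM19 (0.87) and GI passed this test too. Of the root rises named by the rule, the root change was above that of the shoot for AT5G38910 (3.03), PDF2.1 (1.46), AT3G01490 (1.17) and AT1G78990 (1.08). It was below that of the shoot for AT4G33980 (-2.34) and COR27 (-1.64).

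Among the root falls the difference was -1.86 for AT3G19430, -1.58 for AT1G05575, -1.57 for AT5G61590, -1.14 for AT2G28780, -1.08 for AT4G22212, -1.07 for UGT76D1, -1.03 for AT2G01900, -0.67 for AT5G14120 and -0.56 for XTH21. AT5G61590 was the 1 of these with a called change of opposite sign in shoots (0.72).

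Of the genes with the largest differences, the shoot change was below that of the root for AT2G15020 (2.6), AT1G13650 (2.2), AT1G55960 (2.02), AT2G36630 (1.83) and AT1G64500 (1.77). It was above that of the root for AT1G07050 (-3.69), COR15B (-3.54), AT3G22240 (-3.27), AT4G30650 (-3.07), AT5G62360 (-2.95) and AT1G56300 (-2.41). None of these 11 passed in roots alone. Of the damage-induced loci AT3G45730 (-1.69) and AT2G47680 (-1.25) rose in shoots and did not pass in roots. The difference was examined with a pseudocount of 1 only for AT5G38910 and the 11 genes with the largest differences. Among these, AT5G38910 (2.99) and AT2G36630 (2.49) did not pass. The differences of the other named genes were not examined in that setting.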

How the results depend on the processing

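All 147 called probe sets kept their sign under the 15 alternatives that measured them, and no named gene called in roots was reversed. Their number moved with the pseudocount, to 72 at 1 (35 higher, 37 lower) and 303 at 64 (152 and 151), and with the arrays fitted, to 38 on 12 root arrays (19 and 19) and 0 on the 4 arrays alone (0 and 0; 2499 at an unadjusted p below 0.05). Without the dimmest 50% 47 were higher. With 1 array left out the count was 39 to 207 (19 to 110 higher, 19 to 97 lower), that of the organ difference 408 to 544 of 682, and that of 6 h against the first hour 873 to 1455 of 1529, where the lone array is assumed to vary like other groups. Quantile scaling (203 over all arrays, 162 within organs), median centring (142), the dimmest 30% left out (146), no trend (136) and a mean signal of at least 32 (117, chosen after seeing the data) stayed within 1.5 times of 147. The balance of rises and falls moved more than the count. With median centring 38.7% of the calls of 6 h against 3 h were rises (55 higher, 87 lower), against 48.3% without it. Of the calls of 6 h against the first hour 43.9% were rises with it, against 55.7% without it. The share of rises also moved when single arrays were left out. Of the 24 named genes, 9 passed with a pseudocount of 1 (PDF2.1, AT1G78990, COR27 and AT2G01900, past the threshold without any 1 array, were among those lost), 12 on root arrays alone and 8 to 15 with 1 array left out, and 21 to 23 under 64, quantile scaling, median centring and no trend. The replicate block, although the labels do not state that the numbers pair the samples, gave 150 calls, 136 of them shared, and lost AT4G33710 alone of the 24. The causes were not tested. MAS5 signals near 0 carry no detection call, which limits the dim genes (COR27 at 3 h, AT3G01490, CYP718).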
